A study of Mus musculus with 12 samples.

Results

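In all, 7 mRNAs were examined here that encode secreted proteins linked to alternative activation of macrophages: the chitinase-like genes Chil3, Chil4 and Chil1, the resistin-like (RELM) genes Retnla and Retnlg, and the eosinophil-associated ribonucleases Ear2 and Ear11. They were taken by name, as 7 of the 38887 genes measured in each library, and Ear11 is listed in the files under its other symbol, Rnase2a. The libraries came from bone marrow-derived macrophages (BMMs) that were grown for 6 days in M-CSF at 50 ng/ml, then plated at 500000 cells per well, with n = 3 mice in each of 4 groups. WT M0 and KO M0 were untreated, whereas WT M2 and KO M2 received 20 ng/ml IL-4 for 8 h. In KO mice, loxP sites flank exons 4 to 5 of Igf2bp2, which encodes an RNA-binding protein, and Cre was driven by the myeloid gene Lyz2. The WT group consisted of siblings of the same sex and age whose Igf2bp2 was not flanked by loxP, and Cre status could vary among them.

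IL-4 binds its receptor on macrophages and activates the transcription factor STAT6, which switches on a programme that includes these secreted proteins. Chil3 (Ym1) and Chil4 (Ym2) are found in rodents and resemble chitinases without cleaving chitin, and Chil1 is the mouse counterpart of human YKL-40. Retnla encodes RELMα (FIZZ1), a marker of type 2 immunity, and Retnlg encodes RELMγ, known from bone marrow and neutrophils. The Ear genes form a rodent-expanded cluster of ribonuclease A relatives that was first known from eosinophil granules. Chil3 is also a product of neutrophil precursors, so it is not specific to macrophages.

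The 7 genes lie on 4 chromosomes of GRCm38, with coordinates here from GENCODE M21. Chil3 (chr3:106147554-106167564, minus strand, 11 exons) and Chil4 (chr3:106201490-106219507, minus strand, 11 exons) are neighbours, with 33.9 kb and 0 protein-coding genes between them. Retnla (chr16:48842551-48844461, plus strand) and Retnlg (chr16:48872621-48874496, plus strand) have 4 exons each and are 28.2 kb apart, also with 0 protein-coding genes between them. Ear2 (chr14:44102654-44103534, plus strand) and Ear11 (chr14:51255262-51256112, minus strand) have 2 exons each and lie 7150 kb apart, with 101 protein-coding genes between them. Chil1 (chr1:134182176-134190181, plus strand, 10 exons) stands alone.

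The promoter windows of the 3 related pairs are shown because the members of each pair had very different mRNA levels beside similar upstream sequence. Each window is a RefSeq sequence (GRCm38.p6) from 250 bases before to 50 bases after the RefSeq start, and windows were found for 7 of the 7 genes. For Chil4, Chil1, Retnla and Retnlg the RefSeq start differs from the GENCODE start given above. Capitals mark matches to 4 motifs that were searched on both strands: TTCNNNNGAA (STAT6-type), TTCNNNGAA (STAT-type), TTGCNNAA (C/EBP-type) and GAGGAAG (PU.1-type). Chil3 is at chr3:106167515-106167814 and Chil4 at chr3:106219430-106219729, both on the minus strand. Retnla is at chr16:48842359-48842658 and Retnlg at chr16:48872358-48872657, both on the plus strand. Ear2 is at chr14:44102404-44102703 on the plus strand and Ear11 at chr14:51256063-51256362 on the minus strand.
Chil3: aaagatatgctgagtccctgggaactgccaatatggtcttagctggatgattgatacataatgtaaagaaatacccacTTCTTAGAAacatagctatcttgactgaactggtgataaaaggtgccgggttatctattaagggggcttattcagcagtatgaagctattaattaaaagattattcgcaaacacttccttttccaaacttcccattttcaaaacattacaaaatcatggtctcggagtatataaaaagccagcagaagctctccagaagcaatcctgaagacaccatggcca
Chil4: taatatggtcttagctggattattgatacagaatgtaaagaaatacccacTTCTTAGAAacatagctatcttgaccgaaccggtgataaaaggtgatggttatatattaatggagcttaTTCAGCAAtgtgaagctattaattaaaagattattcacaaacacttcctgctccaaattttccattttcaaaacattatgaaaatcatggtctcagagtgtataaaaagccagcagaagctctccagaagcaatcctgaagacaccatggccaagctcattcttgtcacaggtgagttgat
Retnla: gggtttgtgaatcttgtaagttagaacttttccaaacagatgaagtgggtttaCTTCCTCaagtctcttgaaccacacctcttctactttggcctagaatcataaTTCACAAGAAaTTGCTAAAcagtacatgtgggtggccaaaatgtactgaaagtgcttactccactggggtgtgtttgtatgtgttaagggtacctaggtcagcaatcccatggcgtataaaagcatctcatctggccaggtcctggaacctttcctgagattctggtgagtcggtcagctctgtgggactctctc
Retnlg: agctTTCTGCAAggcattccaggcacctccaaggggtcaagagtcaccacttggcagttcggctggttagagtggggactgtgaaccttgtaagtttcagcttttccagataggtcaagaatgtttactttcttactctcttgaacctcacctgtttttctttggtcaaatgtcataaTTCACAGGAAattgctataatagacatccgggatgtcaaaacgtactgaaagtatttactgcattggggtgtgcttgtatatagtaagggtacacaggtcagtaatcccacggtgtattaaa
Ear2: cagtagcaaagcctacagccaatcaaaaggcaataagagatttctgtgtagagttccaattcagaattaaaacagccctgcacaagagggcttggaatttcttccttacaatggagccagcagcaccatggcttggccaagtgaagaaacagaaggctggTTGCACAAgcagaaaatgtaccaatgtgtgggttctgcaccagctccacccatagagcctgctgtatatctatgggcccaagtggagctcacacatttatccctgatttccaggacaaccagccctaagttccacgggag
Ear11: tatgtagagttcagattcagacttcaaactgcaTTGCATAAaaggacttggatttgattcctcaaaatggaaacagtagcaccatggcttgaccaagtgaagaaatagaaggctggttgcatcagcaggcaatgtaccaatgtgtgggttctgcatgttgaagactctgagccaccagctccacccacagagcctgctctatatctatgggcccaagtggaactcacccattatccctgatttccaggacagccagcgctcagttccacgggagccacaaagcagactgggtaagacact

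Positions here count from the RefSeq starts, so they do not show whether paired sites lie at different distances from the GENCODE starts. The Chil3 and Chil4 windows were 92.6% identical over 271 aligned bases. Each held the same STAT-type letters, TTCTTAGAA, at position -172 in Chil3 and -200 in Chil4. This motif occurred in 8.3% of all 32851 promoter windows. Retnla and Retnlg were 77.4% identical over 226 aligned bases, and both held a STAT6-type match, TTCACAAGAA at position -145 in Retnla and TTCACAGGAA at position -72 in Retnlg. A STAT6-type match was present in 6.95% of all windows. The Ear2 and Ear11 windows were 87.5% identical over 255 aligned bases, held no STAT-type or STAT6-type letters and each held 1 C/EBP-type match, a motif found in 10.8% of all windows. The PU.1-type letters, found in 13.6% of all windows, occurred once in Retnla and in none of the other members, and the Chil1 window held none of the 4 motifs. These matches describe the letters of the windows, and binding of a factor was not measured.

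The depth behind each value was 20011792 to 39632770 estimated counts per library, and levels are given as CPM (counts relative to the library total after TMM normalisation) or as the deposited TPM (relative to the library total and the gene length) where genes are compared with each other. The deleted gene Igf2bp2 ranged over 76.5 to 118 CPM (WT) and 84.9 to 95.9 CPM (KO) before IL-4, and over 178 to 233 CPM (WT) and 129 to 146 CPM (KO) after it, so that its count over the whole gene did not separate the genotypes in M0. In M2 it was called lower in KO (-0.65 on the log2 scale, edgeR adjusted p = 0.0285). In separate assays, the paper reported Igf2bp2 protein and mRNA as nearly undetectable in KO BMMs. Lyz2, which carries the Cre, was 7030 to 10500 CPM in WT M0 and 22.1 to 33.2 CPM in KO M0, and an effect of the changed Lyz2 locus or of Cre cannot be told apart from the loss of Igf2bp2. Igf2bp3, a relative of the deleted gene, was 15.6 to 16.9 CPM in WT M0 and 2.71 to 4.7 CPM in KO M0. All 12 macrophage markers were detected, at summed levels of 6250 to 16700 CPM per library, a sum that holds Lyz2. The other marker lists summed to 36.5 to 77.2 CPM (monocyte), 11.8 to 86.1 (dendritic cell), 10.6 to 104 (stromal), at most 2.32 (basophil and mast cell) and at most 1.48 (lymphocyte). WT library 3 stood apart from WT libraries 1 and 2 in several genes described here, both in M0 and in M2. The data are of bulk cultures, in which fewer cells of a type and less RNA per cell cannot be told apart.

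Retnla was the most abundant of the 7 mRNAs in M2 macrophages and was almost absent in M0. By TPM, the order in WT M2 was Retnla at 343 ± 146 TPM, Chil3 at 28.3 ± 10.9, Ear11 at 2.98 ± 0.651, Chil4 at 0.72 ± 0.185, Ear2 at 0.577 ± 0.14, Chil1 at 0.08 ± 0.0721 and Retnlg at 0 TPM (mean ± SD, n = 3). The same order held in KO M2, with Retnla at 353 ± 27.4 TPM, Chil3 at 29.9 ± 3.95, Ear11 at 6.91 ± 1.17, Chil4 at 1.32 ± 0.366, Ear2 at 0.5 ± 0.215, Chil1 at 0.0467 ± 0.0404 and Retnlg at 0 TPM. The ranges of Retnla, Chil3 and Ear11 did not overlap in either genotype, whereas Chil4 and Ear2 overlapped in WT M2 and not in KO M2. In M0, Chil3 led with 3.86 ± 1.51 TPM in WT and 2.12 ± 0.231 TPM in KO, and none of the other members reached a mean of 1 TPM. Among the 12846 genes that passed the filter on low counts, Retnla ranked 468 by TPM in WT M2 and Chil3 ranked 4986.

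**Figure D1:**
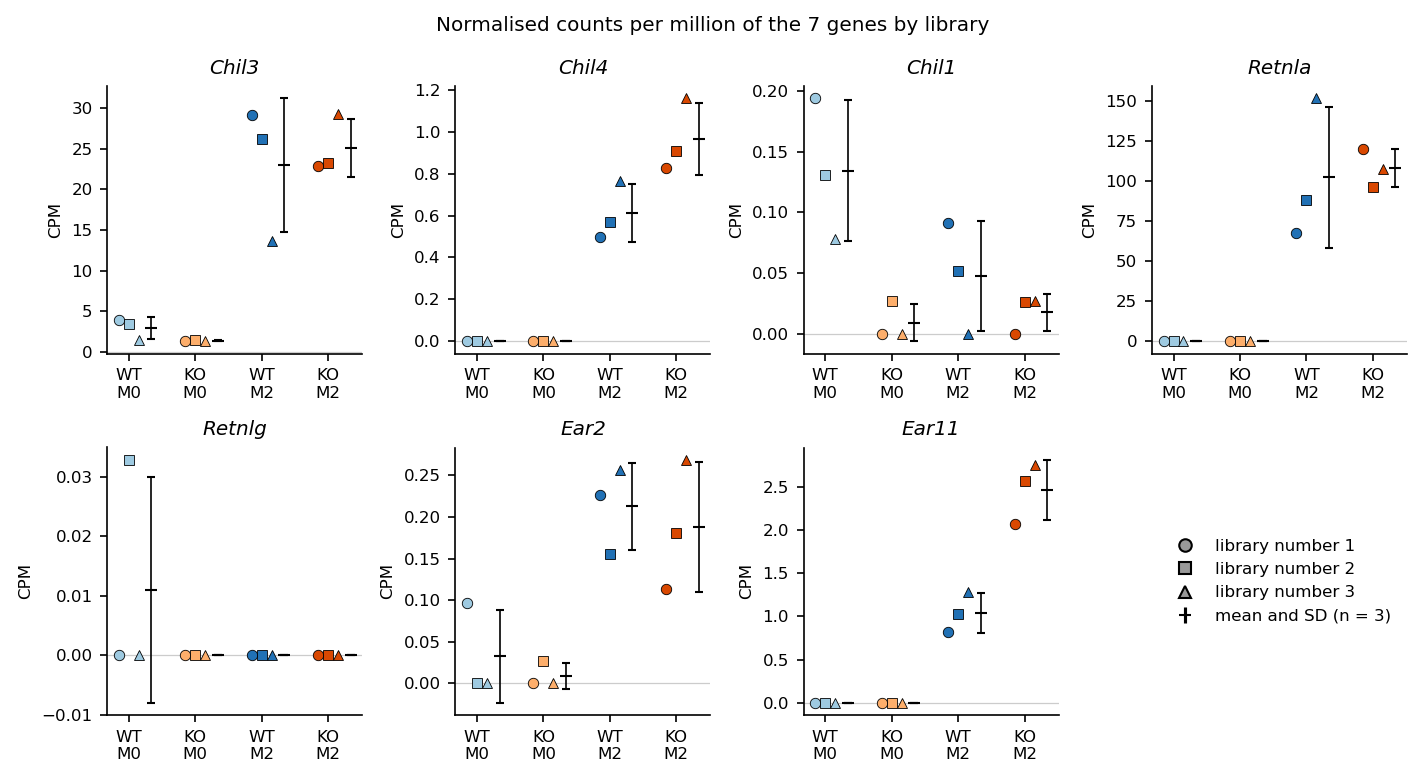
TMM-normalised counts relative to the library total (CPM) of each of the 7 genes in the 12 libraries, with 1 panel per gene, its own linear axis, and the mean and SD of each group (n = 3) as a bar beside the points. Retnla lies between 67.5 and 152 CPM in M2 and at no more than 0.117 CPM in M0, and Ear11 is the member whose KO M2 points (2.07 to 2.75 CPM) lie furthest above the WT M2 points (0.818 to 1.28 CPM).

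The response to IL-4 was asked first, separately in each genotype. Retnla had 0, 1 and 3 counts in the WT M0 libraries and 1485, 1713 and 2968 counts in the WT M2 libraries, or 67.5, 88.3 and 152 CPM. In KO it had 1, 3 and 0 counts in M0 and 3183, 3730 and 4014 counts in M2, or 120, 96.5 and 108 CPM. Every M2 library was therefore far above every M0 library, and WT library 3 was the highest of all. From the summed counts, Retnla was 2200-fold higher with IL-4 in WT (95% exact counting interval 859 to 8080) and 2700-fold higher in KO (1050 to 9900). These intervals cover counting error only and are wide because the M0 groups held 4 counts each. The edgeR estimate on the log2 scale was 10.99 (SE 0.53, adjusted p = 3.38e-09) in WT and 11.27 (SE 0.52, adjusted p = 2.29e-09) in KO. With 1 library left out it ranged from 10.4 (without WT M0 library 1) to 12.28 (without WT M0 library 3) in WT and from 10.67 (without KO M0 library 3) to 12.38 (without KO M0 library 2) in KO.

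Chil3 was measurable before IL-4 and rose with it. The WT M0 libraries had 3.95, 3.48 and 1.44 CPM of Chil3, and those of WT M2 had 29.1, 26.2 and 13.6 CPM. The KO M0 libraries had 1.36, 1.51 and 1.36 CPM, and those of KO M2 had 22.9, 23.2 and 29.2 CPM. The M0 and M2 ranges did not overlap in either genotype. On the log2 scale it rose by 2.93 (SE 0.31, edgeR adjusted p = 5.44e-06) in WT and by 4.15 (SE 0.33, edgeR adjusted p = 3.74e-07) in KO.

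Chil4 and Ear11 were at 0 counts in all 6 M0 libraries, which allows up to 0.0345 CPM over the WT M0 group and 0.0297 CPM over the KO M0 group (3 counts over the group). Chil4 had 0.5, 0.567 and 0.767 CPM in WT M2 and 0.829, 0.906 and 1.16 CPM in KO M2. Against the limit of 3 counts, with the M2 counts taken without counting error, this was at least 17.6-fold higher with IL-4 in WT. In KO it was at least 32.9-fold higher. Ear11, a ribonuclease known to attract macrophages, had 0.818, 1.03 and 1.28 CPM in WT M2 and 2.07, 2.56 and 2.75 CPM in KO M2. On the same terms, its level was at least 30-fold higher with IL-4 in WT and at least 84.3-fold higher in KO. Chil4 (edgeR adjusted p = 7.12e-05 in WT and 1.24e-05 in KO) and Ear11 (1.4e-05 and 1.28e-06) were called higher. However, Chil4, Ear11 and Retnla passed the filter only through the M2 groups, so that a difference from M0 was built into their being tested and their number supports nothing. The share of all genes called higher with IL-4 was 24.9% in WT and 26.8% in KO.

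Chil1, Retnlg and Ear2 did not pass the filter and are given by their counts. Ear2 had 3, 0 and 0 counts in WT M0 and 5, 3 and 5 in WT M2, a ratio of 6.18 from the summed counts (95% exact counting interval 1.7 to 33.8). In KO it had 0, 1 and 0 counts in M0 and 3, 7 and 10 in M2, a ratio of 19.8 (3.16 to 819). In CPM, Ear2 was at most 0.097 in WT M0 and at least 0.155 in WT M2, although the counts met at 3, and it was at most 0.0265 in KO M0 and at least 0.113 in KO M2. In a fit of 20576 genes without the filter the IL-4 change of Ear2 was 2.49 on the log2 scale in WT (edgeR adjusted p = 0.0584) and 3.79 in KO (edgeR adjusted p = 0.00862). Chil1 had 6, 4 and 2 counts in WT M0 and 2, 1 and 0 in WT M2, a ratio of 0.357 (0.0646 to 1.32), and 1 and 2 counts in all in KO M0 and KO M2. Retnlg, the neighbour of Retnla, had 1 count in 1 WT M0 library and 0 counts in the other 11 libraries. Hence the large change of Retnla had no counterpart in Retnlg that was detectable at this depth.

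A list of IL-4 activation genes gives the setting of these changes. Of its 32 tested genes, 32 rose with IL-4 in WT and 32 in KO, beside 24.9% and 26.8% of all genes. Some, such as Pdcd1lg2 (3 counts in WT M0 and 1 in KO M0), passed the filter only through the M2 groups. A rise was built into their being tested, so the number that rose supports nothing. The rest of the 36 listed genes were not tested. Among them, Alox15 had 30 counts in WT M0 and 6 in WT M2, and Ccl17 had 0 and 8. The median change of the 32 tested genes was 3.58 in WT and 3.84 in KO on the log2 scale, beside -0.01 and 0.01 over all genes. Among the largest changes in WT were those of Mgl2 (9.18, a lectin), Flt1 (8.61, a VEGF receptor) and Pdcd1lg2 (8.08, the checkpoint ligand PD-L2). The 4 smallest were those of Kdm6b (1.07, a histone demethylase), Tgm2 (0.86, a transglutaminase), Pparg (0.77, a nuclear receptor) and Myc (0.66, a transcription factor). Chil3 lay below the median of the list in WT and above it in KO. Of the 13 tested genes of the IL-4 receptor and STAT6 pathway, 7 rose and 4 fell in WT and 3 rose and 5 fell in KO. Beside them, 24.9% of all genes rose in WT and 26.8% in KO, and the share that fell is not given here. Il4ra, the receptor subunit that binds IL-4, rose by 0.38 (edgeR adjusted p = 0.000604) in WT and 0.52 (edgeR adjusted p = 3.76e-05) in KO on the log2 scale. Between the genotypes, 3 genes of this pathway were higher and 1 lower in KO M0, beside 9.78% of all genes called in that comparison. In KO M2, 0 were called by edgeR or DESeq2, with 3 at an unadjusted p under 0.05, beside 2.68% of all genes. Of the 5 C/EBP and PU.1 factors, 1 rose and 2 fell with IL-4 in WT, and 2 rose in KO. Cebpb was lower in KO M0 (-0.48, edgeR adjusted p = 0.018), was at 0.34 in KO M2 (edgeR adjusted p = 0.116) and had a larger response to IL-4 in KO (0.82, edgeR adjusted p = 0.0151), all on the log2 scale. In KO M2, DESeq2 called 2 of these 5 factors higher and edgeR 0, with 2 at an unadjusted p under 0.05.

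**Figure D2:**
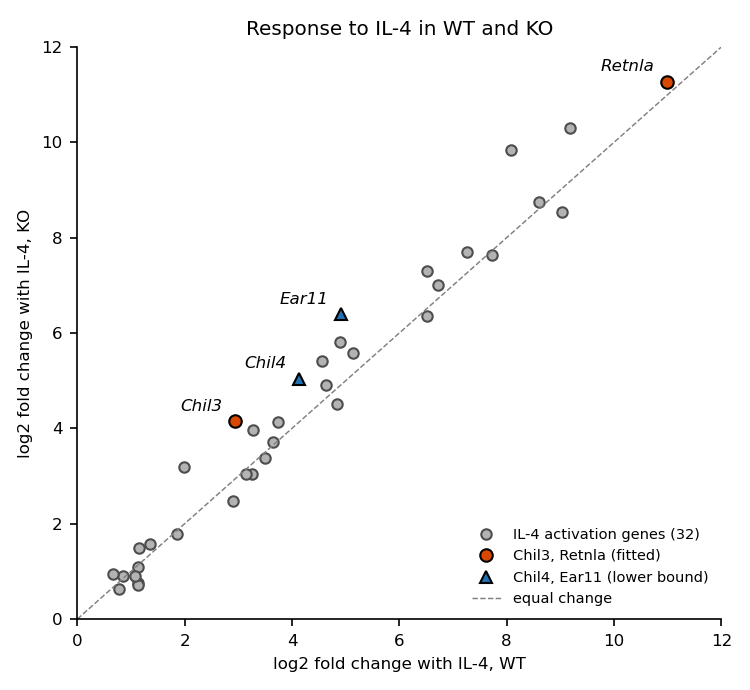
Log2 fold change with IL-4 in WT (horizontal axis) against KO (vertical axis) for 32 IL-4 activation genes (grey), for Chil3 and Retnla as fitted by edgeR (orange) and for Chil4 and Ear11 as lower bounds against 3 counts in the M0 group (blue triangles). The bounds take the M2 counts without counting error, and some grey genes passed the filter only through the M2 groups. Retnla, which had 4 counts in each M0 group, lies at 10.99 in WT and 11.27 in KO, and Chil3 lies above the line at 2.93 and 4.15.

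Relatives outside the 7 genes behaved in mixed ways. Of the chitinase relatives, Chit1 and Chia1 (the active chitinases) were at 0 in all libraries and Chil5 and Chil6 had 1 count each, whereas Chid1 rose with IL-4 by 0.81 (edgeR adjusted p = 6.92e-07) in WT and 0.45 (edgeR adjusted p = 8.14e-05) in KO on the log2 scale. Ctbs was at -0.09 in WT (edgeR adjusted p = 0.246) and fell by 0.15 in KO (edgeR adjusted p = 0.0455), and Ovgp1 was at 0.26 and -0.04 (edgeR adjusted p = 0.522 and 0.932). The resistin relatives Retn and Retnlb had 1 and 0 counts in all. In the Ear cluster, Ear1, Ear6 and Ear14 were at 0 in all libraries, Ear10 had 3 counts in M0 and 0 in M2, and Rnase2b was between 0.0329 and 0.358 CPM in all groups. Of the more distant ribonucleases, Rnase4 (1.13 in WT and 1.6 in KO) and Ang (1.3 and 1.78), which encodes angiogenin, rose with IL-4 on the log2 scale in both genotypes (edgeR adjusted p from 1.08e-06 to 0.000508). Rnase6 was at -0.03 in WT and 0.06 in KO (edgeR adjusted p = 0.954 and 0.9). The ribonuclease inhibitor Rnh1 fell by 0.62 in WT and fell by 0.65 in KO. The pattern of 0 counts in M0 and a level in M2 was also seen in Ang2, with 0.0909, 0.155 and 0.358 CPM in the WT M2 libraries and 0.527, 0.414 and 0.565 CPM in those of KO.

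Reads that match several of these genes were divided by the authors' quantification, and this bears on Chil3, Chil4 and Ear2. The longest coding transcripts of Chil3 and Chil4 (1539 bases each) were 94.4% identical, and 14.2% of the 75-base windows of Chil3 and 9.76% of those of Chil4 also occurred in a transcript of another gene. For Ear2 this share was 23.4%, shared with Ear1, Ear10 and a pair of pseudogenes, and it was 0% for Chil1, Retnla, Retnlg and Ear11. The deposited uncertainty of the division was small in M2, between 0.95 and 2.25 counts per library for Chil3 and Chil4, against 10.66 to 42.87 counts of Chil4 itself. Chil4 made up 1.69%, 2.12% and 5.34% of the Chil3 and Chil4 counts in WT M2 and 3.5%, 3.76% and 3.81% in KO M2. The Wilson 95% intervals were widest in WT library 3 (3.26% to 8.62%) and reached down to 0.946% in WT library 1. The genotypes therefore overlapped in this share (3.05% ± 1.99 in WT and 3.69% ± 0.166 in KO, SD, n = 3, two-sided exact permutation p = 0.6).

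The genotypes were compared next in untreated cells, where 9.78% of all genes were called. Of the 4 members that passed the filter, Chil4, Ear11 and Retnla had 0 to 4 counts in each M0 group and could hardly be called, which left Chil3. Chil3 was not called, and at an unadjusted p under 0.05 it was lower in KO by edgeR and by DESeq2 but not by limma on log2(TPM + 1). With 2.96 ± 1.33 CPM in WT M0 and 1.41 ± 0.0893 CPM in KO M0 (SD, n = 3), the difference was -1.09 on the log2 scale (SE 0.39, edgeR adjusted p = 0.104). WT library 3 (1.44 CPM) lay within the range of KO, and without that library the fold change was -1.39 and Chil3 was called (edgeR adjusted p = 0.0271). Chil1 had 12 counts in WT M0 and 1 in KO M0, a ratio of KO to WT of 0.0717 (95% exact counting interval 0.00168 to 0.485). Its 3 WT values, 0.194, 0.131 and 0.0779 CPM, were above the 3 KO values of 0, 0.0265 and 0 CPM. Groups did not overlap for 31.1% of all tested genes, and without the filter the Chil1 difference was -3.32 on the log2 scale (edgeR adjusted p = 0.0944). For Retnla, with 4 counts in each group, and for Chil4 and Ear11 at 0, no fold is given.

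Neutrophil mRNAs differed in both directions in these libraries. Of the 8 tested genes of the neutrophil list, 3 were lower in KO M0, namely S100a9 (-1.38), Ngp (-1.82) and Ltf (-2.09, lactoferrin), and Mmp8 was higher (0.91, a collagenase), all as edgeR log2 fold changes. The median of the 8 was -0.93, beside 0 over all genes, and at an unadjusted p under 0.05 there were 5 lower and 1 higher. Over the 15 genes of the list, the summed level was 43 to 60.8 CPM in WT M0 and 49.7 to 61.8 CPM in KO M0, most of it Mmp8 in KO M0, and Ly6g, which defines mature neutrophils, was at 0 in every library. Ltf was at 6.21, 7.72 and 2.61 CPM in the WT M0 libraries and at 1.58, 1.22 and 1.13 CPM in those of KO M0. Mmp8 was at 17.1, 24.6 and 24.8 CPM in WT M0 and at 45.7, 34.8 and 44.4 CPM in KO M0. WT library 3 was thus the lowest of WT M0 for Ltf, as for Chil3, and the highest for Mmp8. In KO M2, Mmp8 was again higher (0.74, edgeR adjusted p = 0.0274) and Ltf was at -0.99 (edgeR adjusted p = 0.196). The stromal list summed to 34.8 to 58.3 CPM in WT M0 and 10.6 to 34.1 CPM in KO M0, with a median log2 fold change of -0.71 over its 7 tested genes. The part of these mRNAs in the Chil3 values was not tested.

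With IL-4, 1 of the 4 tested members differed between the genotypes, Ear11, beside 2.68% of all genes. Ear11 was 1.04 ± 0.23 CPM in WT M2 and 2.46 ± 0.348 CPM in KO M2 (SD, n = 3), from 18, 20 and 25 counts in WT and 55, 99 and 102 counts in KO. The difference was 1.25 on the log2 scale (SE 0.25, edgeR adjusted p = 0.0447), and the 3 KO libraries were above the 3 WT libraries. Chil4 also did not overlap between the genotypes (0.67, SE 0.31, edgeR adjusted p = 0.269), and 24.8% of all genes had groups that did not overlap. Chil3 (0.13, SE 0.26, edgeR adjusted p = 0.823) and Retnla (0.08, SE 0.22, edgeR adjusted p = 0.878) had overlapping groups, and with a single library left out their fold change ranged from -0.14 to 0.34 and from -0.15 to 0.47. Ear2 had 13 counts in WT M2 and 20 in KO M2, a ratio of 0.917 (95% exact counting interval 0.434 to 2). Chil1 had 3 and 2 counts. With 3 against 3 libraries the smallest p that the two-sided exact permutation test allows is 0.1, and this was reached for Ear11 and for Chil4.

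The Ear11 difference was close to the threshold. It was called by DESeq2 (adjusted p = 0.0149), by limma on log2(TPM + 1) and log2(TPM + 0.1) (adjusted p = 0.00754 and 0.0362), and with other size factors and filters, and lost in each of the 6 fits that left out 1 library (log2 fold change 1.09 to 1.42, edgeR adjusted p from 0.0549 to 0.158). It was also not called with the counts of all Ear genes summed (0.94, edgeR adjusted p = 0.109). Nor was it called with a block by library number, which does not pair WT with KO (1.24, edgeR adjusted p = 0.077). Of the eosinophil list, Epx, Prg3 and Il5ra were at 0 in all 12 libraries, and Prg2 and Gata1 had 1 count each. Other genes of the list were detected in all 12 libraries, Siglecf at 0.162 to 0.67 CPM, Cebpe at 0.164 to 0.588 CPM, Gata2 at 0.498 to 1.96 CPM and Ccr3 at 8.46 to 39.1 CPM. The 10 genes of the eosinophil list without Ear11 summed to 19.8 to 40.9 CPM in WT M2 and 15.1 to 19.7 CPM in KO M2, most of it Ccr3, a chemokine receptor (-1 on the log2 scale, edgeR adjusted p = 0.0704). The stromal list summed to 82.6 to 104 CPM in WT M2 and 44.6 to 65.3 CPM in KO M2, and of its 7 tested genes 0 were called by edgeR or DESeq2 and 4 were lower at an unadjusted p under 0.05 (median log2 fold change -1.15). Of these sums, Pecam1, an endothelial gene that IL-4 raised in both genotypes, made up 42.2 to 49.4 CPM in WT M2 and 34.7 to 42 CPM in KO M2. The monocyte list summed to 39.5 to 63.6 CPM in WT M2 and 68.6 to 71.2 CPM in KO M2. The part of these mRNAs in the Ear11 values was not tested. None of the 32 tested IL-4 activation genes was called between WT M2 and KO M2 by edgeR, with 4 at an unadjusted p under 0.05 and 1 called by DESeq2. In M0, 2 genes of this list were higher and 3 lower in KO, beside 9.78% of all genes called.

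**Figure D3:**
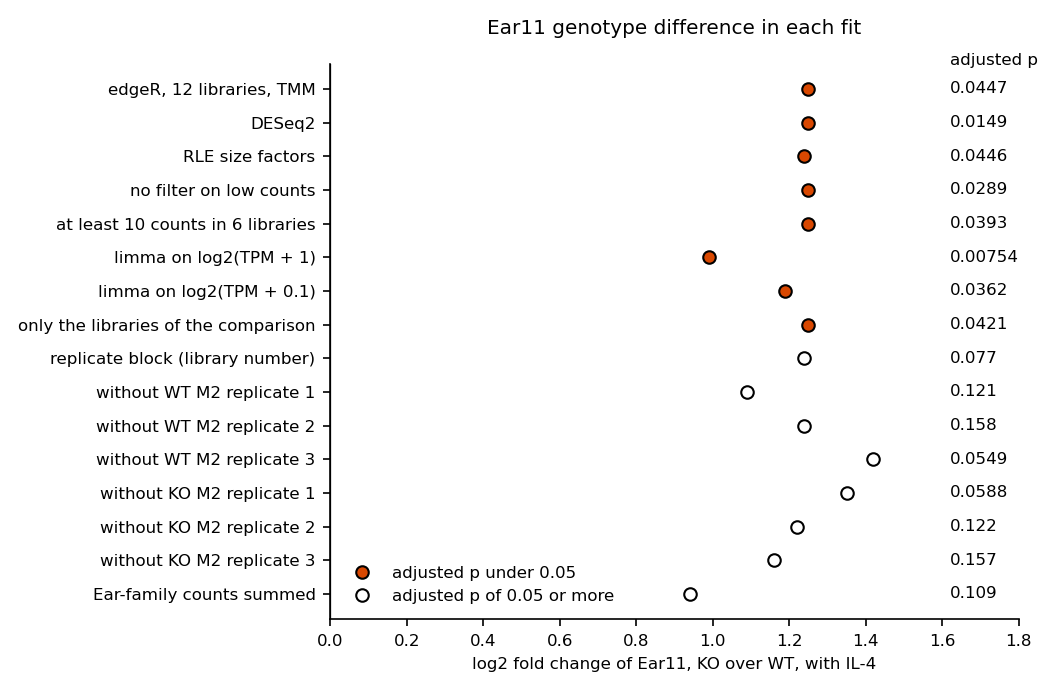
Log2 fold change of Ear11 between KO M2 and WT M2 (horizontal axis) in 16 fits, with filled points where the adjusted p was under 0.05 and the adjusted p printed at the right. All points lie between 0.94 and 1.42, and the 6 fits without 1 library are all open, with adjusted p from 0.0549 to 0.158.

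Finally, the IL-4 responses of the genotypes were compared with each other. For Chil4 and Ear11 the difference between the responses could not be estimated from counts, because both M0 groups were at 0. For Retnla, with 4 counts in each M0 group, it was 0.28 by edgeR (SE 2.5) and 0.31 by DESeq2 (SE 1.15). This left Chil3, which the unpaired edgeR fit did not call, where 3.24% of all genes were called, nor did DESeq2. Of the 32 IL-4 activation genes, 3 had a larger and 1 a smaller response in KO. The response of Chil3 was larger in KO by 1.21 on the log2 scale (SE 0.47, edgeR adjusted p = 0.199). M0 and M2 libraries with the same number varied together within a genotype, and with the mouse as a block the difference was 1.19 (SE 0.16, edgeR adjusted p = 0.0042), in a fit that called 7.81% of all genes. By number, Chil3 rose 7.37, 7.52 and 9.44-fold in WT and 16.8, 15.3 and 21.6-fold in KO, so that each KO pair rose more than each WT pair. How many of all genes separate in this way was not counted. Leaving out both libraries of any 1 mouse from the blocked fit gave 1.03 to 1.31 (edgeR adjusted p from 0.00568 to 0.0355). In level, KO differed from WT by -1.09 in M0 on the log2 scale (edgeR adjusted p = 0.104). In M2 the difference was 0.13 (edgeR adjusted p = 0.823). Neither difference was called, and the M2 levels of the genotypes overlapped. The part of the M0 level in these ratios was not tested.

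**Figure D4:**
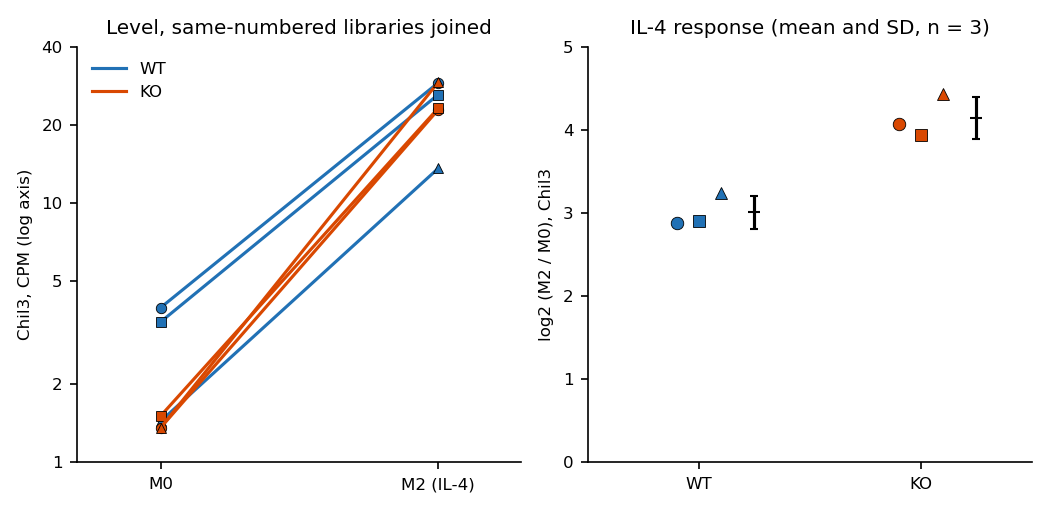
Chil3 in CPM on a log axis in M0 and M2 with same-numbered libraries joined (left), and its log2 ratio of M2 to M0 for each number with the mean and SD (right, n = 3 per genotype). The log2 ratios are 2.88 to 3.24 in WT and 3.94 to 4.43 in KO, and the M2 levels overlap.

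Between libraries of a group, the members did not all vary together. In WT M2 the highest library exceeded the lowest by 2.25-fold for Retnla, 2.14-fold for Chil3, 1.56-fold for Ear11 and 1.53-fold for Chil4, but library 3 was the highest for Retnla, Ear11 and Chil4 and the lowest for Chil3. In KO M2 these ratios were 1.24, 1.28, 1.33 and 1.4. For deviations of log2 CPM from the group means over the 12 libraries, Pearson's r was -0.77 between Chil3 and Retnla and 0.92 between Chil4 and Ear11, and it lay between -0.37 and 0.4 for the other 4 pairs. These are descriptions over 12 libraries that fall in 4 groups, and the M0 values of Chil4 and Ear11 hold no counts.

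Among all tested genes, those closest to each member over the 12 libraries (Pearson's r of log2 CPM, the members left out) were Zfp874b, Maml1, Plk2, Ankrd6 and Prmt7 for Chil3 (r from 0.987 to 0.994). For Retnla they included Cish, Auh, Socs1 and Cdh1 (r from 0.997 to 0.998), of which Cish and Socs1 encode feedback inhibitors of cytokine signalling. Chil4 was closest to Cd164, Msx3, Plk3, Hnrnpll and Mgat1 (r from 0.995 to 0.997), and Ear11 to Cd164, Ggt5, Plpbp, Bzw2 and Mgat1 (r from 0.994 to 0.996). All these values mainly describe the step from M0 to M2. For deviations from the group means, the closest genes were Otud4, Eaf1, Mia2, Man1c1 and Crk for Chil3 (r from 0.961 to 0.974) and Ube2d-ps, Eral1, Rab32, Osm and Gprc5b for Retnla (r from 0.955 to 0.98). On the same measure, Chil4 was closest to Kif24, Cdk19, Tfdp2, Ankrd42 and Serpina3i (r from 0.912 to 0.933), and Ear11 to Slc35g1, Rttn, Mki67, Dtnb and Pcnt (r from 0.956 to 0.972). These genes were picked as the highest among 12846 tested, so the size of r supports nothing. For Chil4 and Ear11, only the M2 libraries hold counts.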

How the data were processed

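RNA-Seq was performed on poly(A) RNA of 12 libraries (75 nt single reads, strand-specific kit). The authors used FastQC 0.11.2 and the Grape-nf pipeline under Nextflow and aligned to GRCm38. The deposited tables give expected counts per gene, in which reads matching several genes are divided, with TPM, gene lengths and, as a score of the authors' quantification, the posterior SD of each count. The quantifier run inside that pipeline is not given in the sources used here. The authors' DESeq2 1.40.2 tables hold comparisons (fold changes, p-values), and only their gene symbols were used. With GENCODE M21 symbols, 37570 genes had a name, and Ear11 was found as Rnase2a through RefSeq synonyms.

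Groups followed the sample labels (n = 3). Expected counts were rounded, and 12846 genes passing filterByExpr were fitted with edgeR 4.0.16 (TMM, quasi-likelihood F test, 12 libraries, biological coefficient of variation 8.08%) in R 4.3.3. A gene was called at a Benjamini-Hochberg adjusted p under 0.05 over all genes. An edgeR SE is the fold change divided by the root of its F value, and it is unreliable where a group holds few counts, as for Retnla. Alternatives were DESeq2 1.42.0, RLE factors, no filter, at least 10 counts in 6 libraries, limma 3.58.1 on log2(TPM + 1) and log2(TPM + 0.1), the 6 libraries of a comparison only, replicate blocks, summed paralogs and leaving out each library. The blocked fits without each mouse were added after the data were seen. Fits were tested on simulated data. Totals were 20011792 to 39632770 counts per library, which sets the precision, and intervals cover counting error only. Likeness used log2 CPM with a prior count of 2. Counting ratios, shares, sequence matches and figures used Python 3.11.15 with scipy 1.17.1, Biopython 1.88 and matplotlib 3.10.9. Replicates of a group differed by more than sampling noise.

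Library numbers paired M0 with M2 within a genotype, as the deviations of same-numbered libraries from the group means correlated (0.331, 0.103 and 0.364 in WT, 0.166, 0.16 and 0.209 in KO). They did not pair WT with KO (-0.068 to 0.04). The members and the gene lists were chosen with earlier results of these data known. Named genes are the members, their family relatives, the 4 largest and 4 smallest changes of the IL-4 list in WT, the 5 genes most like each member by either measure, marker lists, Igf2bp2, Igf2bp3 and Lyz2. Il4ra, Cebpb, Alox15 and Ccl17 were chosen after their values were seen. A gene that the rule selects is not reported here.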

Additional observations from a re-analysis of the deposited data

Results flagged for a closer look

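For Chil3, the KO response to IL-4 exceeded the WT response in the test of that difference when the mouse was a block. It did so by 1.19 on the log2 scale (edgeR adjusted p = 0.0042), in a fit that called 7.81% of all genes. The unpaired fit, which called 3.24%, gave 1.21 (edgeR adjusted p = 0.199). In level, KO differed from WT by -1.09 in M0 (edgeR adjusted p = 0.104). In M2 this was 0.13 (edgeR adjusted p = 0.823), and neither was called. The ratio of M2 to M0 was higher in 3 of 3 KO pairs than in any WT pair. The share of all genes whose ratios separate in this way was not counted. The responses of Chil4 and Ear11 could not be compared, because both M0 groups were at 0.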

How the results depend on the processing

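Chil3 was called higher with IL-4 in each genotype under all 9 alternatives and without any 1 library. Chil4, Ear11 and Retnla were tested only because of their M2 counts, so their calls say nothing of stability, and with paralogs summed Chil4 counted only within the sum with Chil3. The log2 fold change of Retnla ranged from 8.13 to 11.11 in WT and from 8.29 to 11.41 in KO over the alternatives, lowest with a pseudocount of 1. Between the genotypes in M0, where Chil3 alone had enough counts for a test, the count of 0 members called became 0 to 1 when a library was left out, with 1 only without WT library 3 among these fits. In M2 the count of 1 member became 0 with the replicate block by library number, which does not pair WT with KO (Ear11 at 1.24, edgeR adjusted p = 0.077), 0 with paralogs summed and 0 without any 1 library. The fit with fewer libraries has fewer samples, and otherwise the cause was not tested. Leaving out a library reversed the M2 difference of Chil3 (range -0.14 to 0.34) and of Retnla (range -0.15 to 0.47), neither of which was called. For the difference between the responses, the count of 0 became 1 with limma on log2(TPM + 1) (Ear11, 0.99, adjusted p = 0.0329), which restates the M2 difference because Ear11 was at 0 in M0, 1 with the mouse as replicate block, and 0 to 1 when a library or mouse was left out, where 1 was reached in the 6 blocked fits. The replicate block with the mouse changed no other call. Counts of at most 20 per group limit Ear2, Chil1 and Retnlg. For Chil4 and Ear11, 0 counts in M0 leave only lower bounds, which take the M2 counts without counting error.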
